A study of Homo sapiens with 6 samples.

Results

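Small nucleolar RNAs (snoRNAs) are short non-coding RNAs that guide the chemical modification of other RNAs. Box C/D snoRNAs, whose symbols start with SNORD, guide methylation of ribose. Box H/ACA snoRNAs, whose symbols start with SNORA, guide the conversion of uridine to pseudouridine. Most targets of both classes are in ribosomal RNA, and some snoRNAs are needed to cleave its precursor. Small Cajal body RNAs (scaRNAs, SCARNA) carry box C/D elements, box H/ACA elements or both and act on the RNAs of the spliceosome. Most human snoRNAs and scaRNAs are cut out of the introns of other genes, called host genes.

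The small RNAs described here were chosen by their symbol and by their counts, and 44 of the 410 symbols that start with SNORD, SNORA or SCARNA had at least 10 counts in each of the 6 libraries. They comprised 14 of 275 SNORD, 20 of 112 SNORA and 10 of 23 SCARNA symbols. The table of counts holds 55765 gene symbols in all. Of the other 366 symbols with these starts, 154 had no counts in any library and 104 had at least 10 counts in some library. Among the 366, 68 had at least 10 counts in both replicate 1 libraries. The minimum was met in all 3 DMSO libraries but not in all SAL libraries by 9 symbols, and in all 3 SAL but not in all DMSO libraries by 11. Just inside the minimum were SNORA26 (10 to 36 counts), SNORA42 (10 to 34 counts) and SNORA20 (11 to 84 counts). Just outside it were SNORD116-6 (9 to 21 counts), SNORD85 (9 to 49 counts) and SCARNA1 (8 to 14 counts).

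RNA was taken from C4-2, a castration-resistant prostate cancer cell line derived from LNCaP. The cells received DMSO as solvent control or 1 nM of the synthetic androgen R1881 (methyltrienolone), a supraphysiological androgen level (SAL), for 72 h. Each group holds 3 libraries numbered 1 to 3, with no other treatment or genetic change in the labels, and the cells of all groups grew in medium with serum. The study describes the sequencing of each condition as repeated independently, and the labels do not say what the replicate numbers mark. Without ribosomal RNA (rRNA) genes, the libraries held 6931042 to 9776990 counts on genes. All 10 markers of luminal prostate epithelium had at least 10 counts in every library. No marker on the lists of basal (4), leukocyte (4) or neuroendocrine (4) genes reached this level in every library, and 1 of 4 fibroblast markers did. KLK3, a known target of the androgen receptor, was higher in SAL, with a log2 fold change of 1.21 (edgeR quasi-likelihood test, adjusted p = 3.33e-07).

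The sequences of SNORA7B and SNORD64, which passed the test below, are shown first. With them are SNORA73B and SNORD14E, which take part in the cleavage of the rRNA precursor. Also shown are SNORD116-18, from the same region as SNORD64, and SCARNA13 and SCARNA5, which differ in the elements marked. All are GENCODE transcripts on GRCh37, the assembly of hg19, written 5′ to 3′. Capitals mark the elements that were searched for in each class. In box C/D RNAs these are the C box (letters TGATGA within the first 20 bases) and the D box (letters CTGA within the last 20 bases). In box H/ACA RNAs they are the letters ACA placed 3 bases before the end. SNORA7B (chr3:129116053-129116191, minus strand), SNORA73B (chr1:28835071-28835274, plus strand) and SCARNA13 (chr14:95999692-95999966, minus strand) carry the ACA element, and the others carry both boxes of the C/D type.
SNORA7B: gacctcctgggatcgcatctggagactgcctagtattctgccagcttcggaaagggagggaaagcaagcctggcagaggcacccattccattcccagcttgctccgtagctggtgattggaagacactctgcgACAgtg
SNORA73B: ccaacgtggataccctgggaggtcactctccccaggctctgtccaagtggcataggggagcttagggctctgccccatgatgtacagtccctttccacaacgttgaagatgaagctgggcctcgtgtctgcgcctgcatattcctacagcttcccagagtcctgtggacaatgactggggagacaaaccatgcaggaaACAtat
SCARNA13: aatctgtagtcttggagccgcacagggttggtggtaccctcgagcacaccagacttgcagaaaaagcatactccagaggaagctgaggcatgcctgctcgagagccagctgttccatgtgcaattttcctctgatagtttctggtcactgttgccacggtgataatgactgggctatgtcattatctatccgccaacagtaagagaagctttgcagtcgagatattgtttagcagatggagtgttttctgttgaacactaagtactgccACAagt
SNORD64: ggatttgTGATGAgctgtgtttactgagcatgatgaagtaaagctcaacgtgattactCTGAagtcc
SNORD116-18: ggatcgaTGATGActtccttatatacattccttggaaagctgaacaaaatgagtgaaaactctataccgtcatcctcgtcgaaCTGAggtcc
SNORD14E: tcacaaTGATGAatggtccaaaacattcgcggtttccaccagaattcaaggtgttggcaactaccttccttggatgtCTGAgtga
SCARNA5: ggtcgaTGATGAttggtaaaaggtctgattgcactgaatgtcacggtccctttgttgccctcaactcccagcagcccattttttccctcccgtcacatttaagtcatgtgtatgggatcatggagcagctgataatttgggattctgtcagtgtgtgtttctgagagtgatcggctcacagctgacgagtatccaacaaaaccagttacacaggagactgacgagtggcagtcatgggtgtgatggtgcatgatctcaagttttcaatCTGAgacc

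The sequences marked with the C/D letters lie at chr15:25230247-25230313 (SNORD64, plus strand), chr15:25330532-25330623 (SNORD116-18, plus strand), chr11:122928785-122928869 (SNORD14E, minus strand) and chr2:234184373-234184648 (SCARNA5, plus strand). Elements at other places were not searched for, so a scaRNA marked with one kind may carry the other as well. On the transcribed strand, both C/D letters were present in 51.54% of the 390 annotated SNORD loci, 0% of the 399 SNORA loci and 12% of the 50 SCARNA loci. The ACA letters at that place were present in 2.31% of the SNORD, 60.4% of the SNORA and 46% of the SCARNA loci. Of the small RNAs with a single locus, 8 of 10 SNORD carried both C/D letters and 4 of 8 SNORA carried the ACA letters.

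What a count of a symbol measures depends on its loci. The table sums the counts of all loci with the same symbol, and reads that map to more than one place were not counted. Of the 44 symbols, 23 have a single annotated locus (10 SNORD, 8 SNORA and 5 SCARNA), 17 have several, with 26 for SNORA31 as the largest number, and 4 (SCARNA10, SCARNA2, SNORD109A and SNORD116-20) matched no locus of the same symbol in the annotation used here. The single loci are 71 to 237 bases long for SNORD, 134 to 249 bases for SNORA and 270 to 353 bases for SCARNA. Each of the 23 lies inside a gene on the same strand, and 7 of them overlap an exon of another gene. Strand was not used in the counting, so reads from a small RNA and from a longer transcript across its locus cannot be told apart in these counts.

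The replicate 1 libraries stood apart from the others in their content of small RNAs. The 44 symbols together took 2115, 583 and 405 of every 1000000 gene counts with DMSO (replicates 1, 2 and 3) and 1482, 556 and 371 with SAL. The sums are therefore higher in both replicate 1 libraries than in any other library, and the DMSO and SAL values overlap. Of the sum of squares in the log2 values of the 44 symbols, 91.2% lay between replicate numbers and 4.11% between treatments, against 77.1% and 16.8% over all genes tested. The deviations of the 44 symbols from their group means correlated at 0.90, 0.58 and 0.87 between the libraries of pairs 1, 2 and 3.

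**Figure D1:**
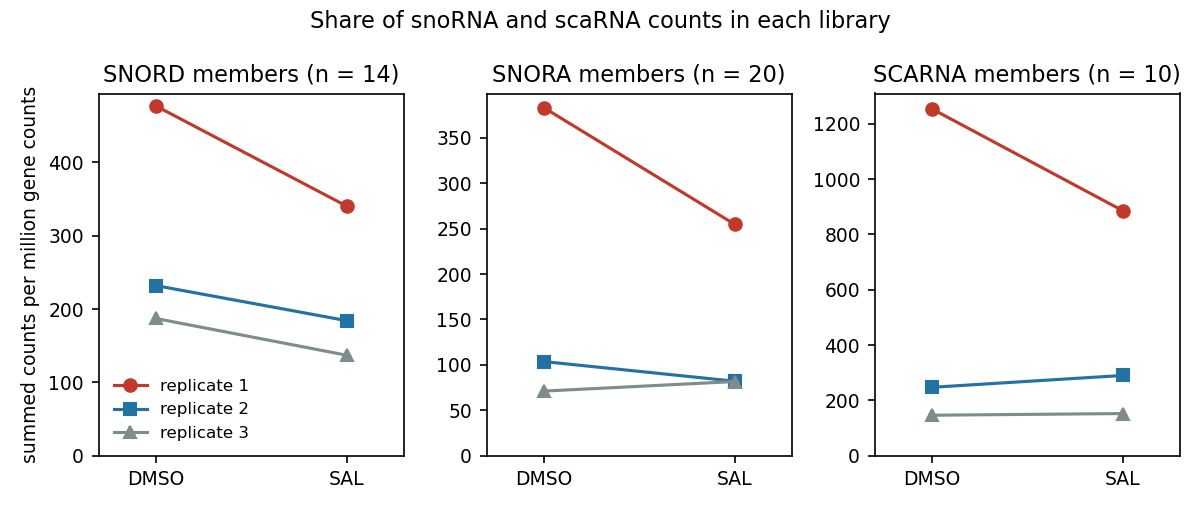
Summed counts of the SNORD, SNORA and SCARNA symbols per 1000000 gene counts (y axis, linear, from 0) in each DMSO and SAL library, with a line joining the libraries of the same replicate number. Replicate 1 is the highest in each class and group, the SNORD lines fall in all 3 pairs and the SCARNA line falls only in pair 1.

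By class, the SNORD sum was 477, 232 and 187 per 1000000 counts with DMSO and 340, 184 and 137 with SAL, so that SAL was at 0.714, 0.794 and 0.732 of DMSO in the 3 pairs. The SNORA sum was 383, 104 and 71.1 on this scale in DMSO and 255, 82.0 and 81.6 in SAL, with ratios of 0.665, 0.791 and 1.15. The SCARNA sum was 1255, 247 and 146 on this scale in DMSO and 887, 290 and 152 in SAL, with ratios of 0.707, 1.17 and 1.04. The SNORD sum was lower in SAL in every pair, the SNORA sum in pairs 1 and 2, and the SCARNA sum in pair 1 alone. A few symbols carried much of each sum. SNORD116-20 held 14.8% to 45.7% of the SNORD counts of a library, SNORA73B held 20.7% to 41.0% of the SNORA counts, and SCARNA10 held 23.2% to 44.8% of the SCARNA counts.

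To measure the step between replicates for each symbol, the mean log2 CPM (counts per 1000000, relative to the TMM-scaled library size) of replicates 2 and 3 was subtracted from that of replicate 1. This difference had a median of 1.93 over the 44 symbols, against -0.02 over all genes tested. The median was 1.70 for SNORD, 1.45 for SNORA and 2.24 for SCARNA, with SCARNA9 at the top at 3.35. SNORA7B was the lowest at -0.56. The SNORD of the SNHG14 region, a large non-coding transcription unit of the Prader-Willi locus on chromosome 15, had a smaller median step than the other SNORD. For these 5 (SNORD64, SNORD108, SNORD109A, SNORD116-18 and SNORD116-20) it ran from -0.03 to 1.19, with a median of 0.50, and for the other 9 SNORD from 0.44 to 2.53, with a median of 1.93. The SNHG14 group was named after its values were seen. Steps as small were also found outside it, as in SNORA67 (-0.03), SNORA72 (-0.02) and SNORA71A (0.34). Other small RNAs with their own promoters, which include the 7SK, 7SL, RNase P and vault RNAs, had a step of 2.25 to 3.42 (median 2.77 over 12 genes).

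**Figure D2:**
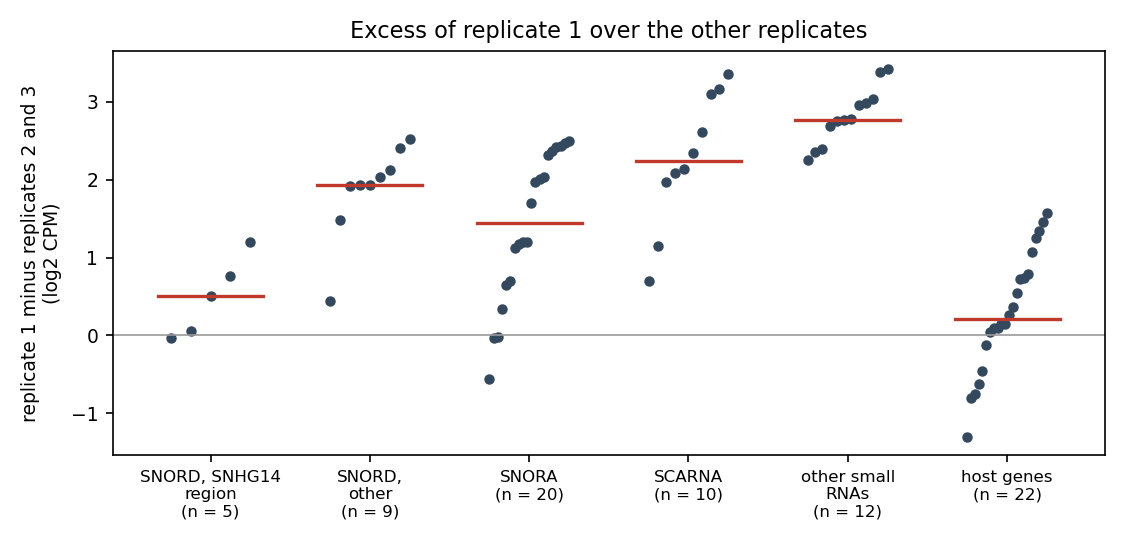
Difference in log2 CPM between replicate 1 and the mean of replicates 2 and 3, averaged over DMSO and SAL (y axis), for the SNORD of the SNHG14 region, the other SNORD, SNORA, SCARNA, 12 other small RNAs and 22 host genes. Points are genes and lines are medians; the 12 other small RNAs range from 2.25 to 3.42 and the host genes from -1.30 to 1.57.

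SAL was then compared with DMSO. Of the 44 symbols, SNORA7B was higher in SAL and SNORD64 was lower at an adjusted p under 0.05 (edgeR quasi-likelihood test with the replicate number as a block, Benjamini-Hochberg over 16835 genes), 2 of 44 in all. Over all genes tested, 20.8% passed, 11.5% higher and 9.37% lower in SAL. Another 7 symbols had an unadjusted p under 0.05 and did not pass the adjustment. That made 9 of 44 with an unadjusted p under 0.05, against 5449 of all 16835 genes. The groups did not overlap for 3 symbols, SNORA7B, SNORD14E and SNORD109A, and the same held for 7.51% of all genes. In all 3 pairs, SAL was lower than DMSO for 14 of the 44 symbols, against 25.3% of all genes, and higher for 1, SNORA7B, against 25.9%. The median log2 fold change was -0.40 for SNORD, -0.20 for SNORA and 0.09 for SCARNA, beside -0.00 for all genes. When 1 replicate number was left out, the SNORD median ran from -0.37 to -0.22 and the SNORA median from -0.41 to -0.05. The SCARNA median ran from -0.23 (without replicate 2) to 0.57 (without replicate 1) and was -0.18 without the replicate block. The standard errors of the 44 symbols ran from 0.11 to 0.48. Of 42 other symbols of these classes that were tested but missed the minimum of 10 counts, 0 passed the adjusted test (edgeR) and 7 had an unadjusted p under 0.05.

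**Figure D3:**
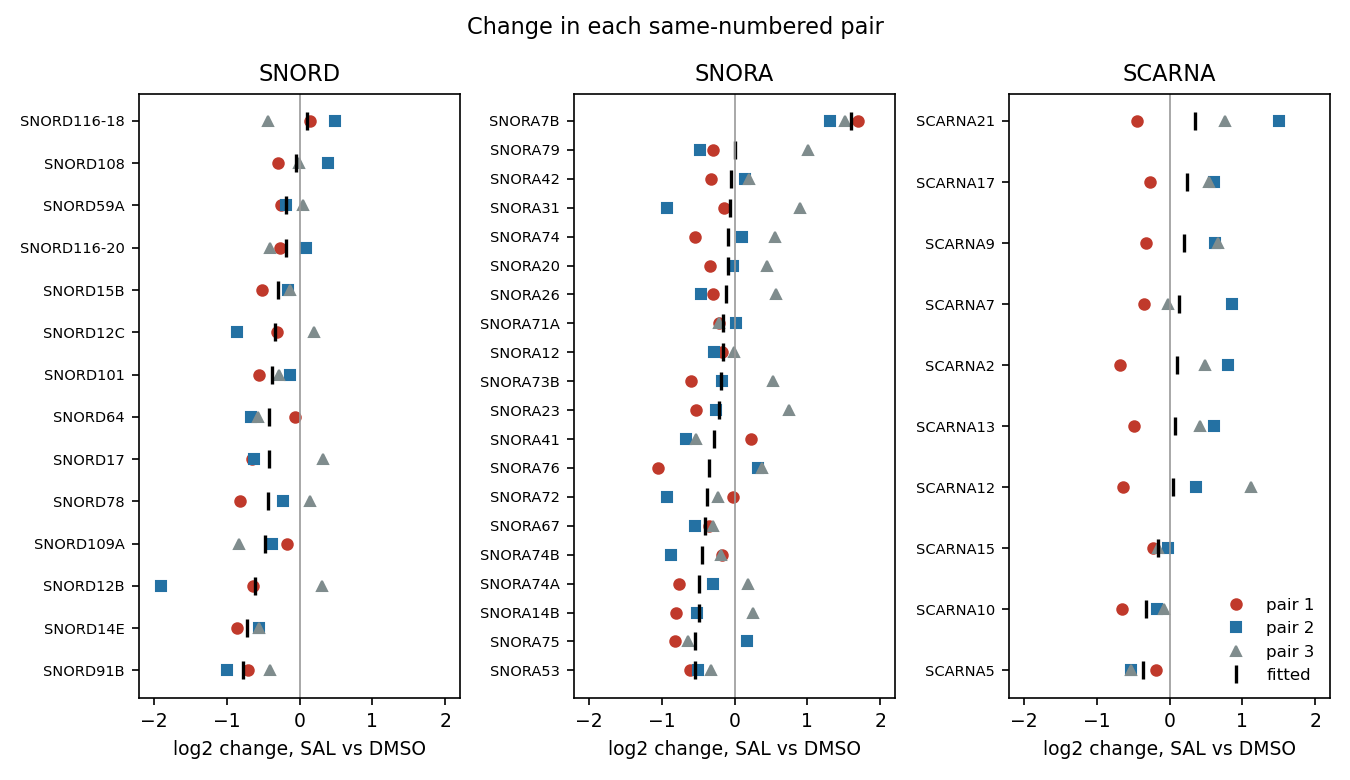
Log2 change in SAL relative to DMSO (x axis) of each of the 44 small RNAs, by class and in the order of the fitted value, with a symbol for each same-numbered pair and a black bar for the fitted value. SNORA7B has all 3 pairs between 1.31 and 1.70, and the SCARNA have pair 1 below 0 in 10 of 10.

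SNORA7B, a box H/ACA RNA, was counted 12, 18 and 20 times in the DMSO libraries of replicates 1, 2 and 3 and 42, 59 and 66 times with SAL. Every SAL library was above every DMSO library. The level rose from 2.21 ± 0.63 to 6.66 ± 1.39 CPM (SD, n = 3), with a log2 fold change of 1.59 ± 0.26 (SE) and an adjusted p of 0.000377 in edgeR. The 3 pairs gave 1.70, 1.31 and 1.52. It kept an adjusted p under 0.05 when any 1 replicate number was left out, at 1.498 (adjusted p = 3.35e-05) without replicate 1. Over the alternative settings the adjusted p ran from 4.04e-07 to 0.459, the latter in the fit that ignores the replicate numbers. SNORA7B made up 0.382% to 4.06% of the SNORA counts there, and 2.03% to 9.87% in SAL.

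The single locus of SNORA7B lies in an intron of a long non-coding RNA (ENSG00000290993, chr3:129101765-129118498, minus strand), 100 bases from the pseudogene RPL32P3 and 3972 bases past the 3′ end of EFCAB12 on the same strand. EFCAB12 codes for a protein with calcium-binding EF-hand domains. It was chosen after its values were seen. It had 92, 121 and 141 counts in DMSO and 354, 421 and 560 in SAL, with no overlap. Its log2 fold change was 1.78 ± 0.13 (SE, adjusted p = 1.28e-07 in edgeR), and the pairs gave 1.97, 1.47 and 1.86. Per 100 counts of EFCAB12, there were 13.04, 14.9 and 14.2 counts of SNORA7B in DMSO and 11.9, 14.0 and 11.8 in SAL. The ratio thus stayed between 11.8 and 14.9 in all 6 libraries. RPL32P3 was at 15.7 ± 3.75 CPM in DMSO and 16.0 ± 2.04 in SAL, with overlapping groups and a log2 fold change of 0.04 ± 0.16 (SE, adjusted p = 0.897 in edgeR). The part of EFCAB12 transcripts in the SNORA7B counts was not tested.

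**Figure D4:**
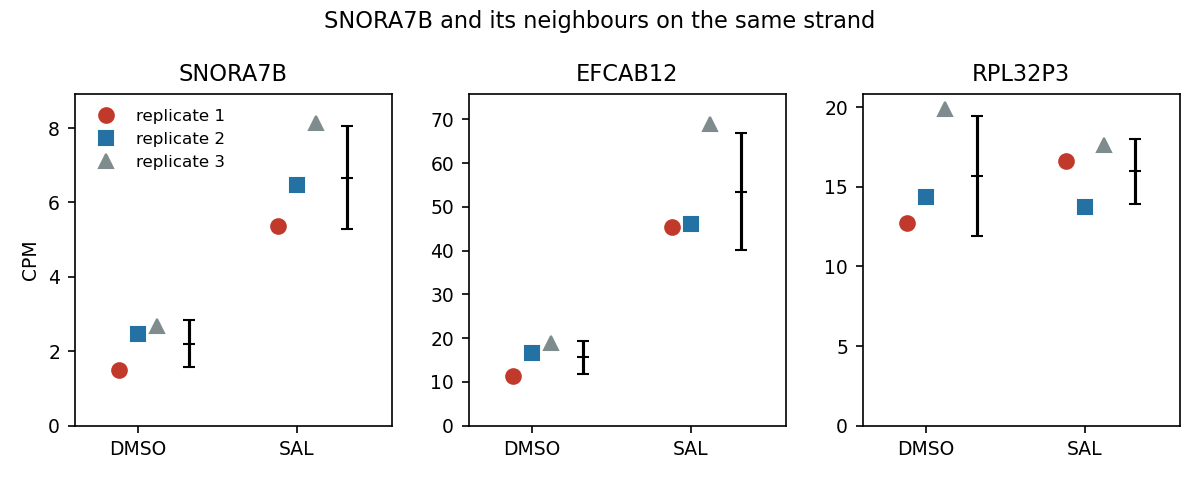
CPM (y axes, linear, from 0) of SNORA7B, EFCAB12 and RPL32P3 in the 3 DMSO and 3 SAL libraries; points are libraries, and bars give the mean ± SD. The SAL libraries of SNORA7B and EFCAB12 lie above all DMSO libraries, and those of RPL32P3 overlap with them.

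Among the SNORD, 13 of 14 log2 fold changes were negative, against 8443 of all 16835 genes. In all 3 pairs 6 of the 14 were lower in SAL, beside 25.3% of all genes. SNORD64, an orphan C/D RNA with no known rRNA target, had 317, 152 and 284 counts in DMSO and 293, 119 and 206 in SAL. The groups overlapped, at 32.7 ± 10.3 and 25.3 ± 12.2 CPM (SD, n = 3), because replicate 2 was low in both. Its log2 fold change was -0.42 ± 0.14 (SE, adjusted p = 0.0457 in edgeR), with -0.07, -0.66 and -0.58 in the pairs. Without replicate 1 it was -0.62 (adjusted p = 0.00102), and it did not pass when replicate 2 (-0.33, adjusted p = 0.156) or replicate 3 (-0.34, adjusted p = 0.406) was left out. It passed in 4 of 10 alternative settings, with adjusted p-values from 0.00102 to 1.00. Of these, the fits without replicate 1 and without the filter gave some genes, such as KLK3, far smaller p-values at like effects. SNORD64 has 2 annotated loci. The locus on chromosome 15 (25230011 to 25230320) is annotated as a sense-intronic RNA of 310 bases within SNHG14 and includes the snoRNA printed above. The other locus, on chromosome 1 (159821696 to 159821762), is a copy of 67 bases. The chromosome 15 locus overlaps exons of SNHG14 and PWAR5. SNHG14 was at -0.17 ± 0.11 (SE, adjusted p = 0.310 in edgeR). The part of these longer transcripts in the SNORD64 counts was not tested.

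The other SNORD of the SNHG14 region did not pass the test with all libraries. SNORD109A had 116, 102 and 157 counts in DMSO and 99, 97 and 95 in SAL. Its groups did not overlap in CPM, at 16.4 ± 3.94 and 11.7 ± 1.02 (SD, n = 3), with a log2 fold change of -0.48 ± 0.17 (SE, adjusted p = 0.0635 in edgeR). Without replicate 1 it passed, at -0.63 (adjusted p = 0.00796), in a fit that gave some genes far smaller p-values. SNORD116-20, the SNORD with the highest mean CPM in DMSO, had 576, 618 and 388 counts in DMSO and 464, 823 and 316 in SAL and overlapped between groups, with a log2 fold change of -0.18 ± 0.11 (SE, adjusted p = 0.281 in edgeR). SNORD116-18 was the only SNORD with a positive value, 0.11 ± 0.32, from 14 to 29 counts a library. SNORD108 was at -0.05 ± 0.25. SNORD109A, SNORD116-20, SNORD116-18 and SNORD108 are named here after their values were seen.

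The SNORD outside that region sit in a range of host genes. SNORD15B, in an intron of the ribosomal protein gene RPS3, had the highest level per length of the single-locus symbols, at 405 CPM per kilobase. It had 1068, 358 and 144 counts in DMSO and 725, 401 and 142 in SAL, with a log2 fold change of -0.29 ± 0.11 (SE, adjusted p = 0.0787 in edgeR) and -0.51, -0.15 and -0.14 in the pairs. SNORD17 (171 CPM per kilobase) had 886, 189 and 72 counts in DMSO and 543, 152 and 98 in SAL. Its pairs were -0.66, -0.63 and 0.32, so pair 3 went the other way, and the adjusted p was 0.0943. Its log2 fold change of -0.42 fell to -0.65 without replicate 3 (adjusted p = 0.0271) and was -0.23 without replicate 1, and it also passed without the filter on low counts (adjusted p = 0.0164). SNORD12B (129 CPM per kilobase), in the non-coding host ZFAS1, had 219, 53 and 56 counts in DMSO and 136, 16 and 76 in SAL. Its pairs of -0.63, -1.90 and 0.31 were the widest spread of the SNORD, with an adjusted p of 0.300. Its log2 fold change of -0.61 became -1.09 without replicate 3 (adjusted p = 0.0458) and -0.29 without replicate 2 (adjusted p = 0.451), and it passed without the filter (adjusted p = 0.0244). These 3 guides of rRNA methylation had lower SAL values in pairs 1 and 2, and SNORD15B in pair 3 as well.

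SNORD91B, named after its values were seen, had the most negative log2 fold change of the 44, -0.77 ± 0.28 (SE), with 77, 21 and 14 counts in DMSO and 45, 12 and 11 in SAL. It was lower in all 3 pairs and did not pass, with an adjusted p of 0.067 in edgeR, but did (0.0447) where 10 counts in every library were asked of all genes. SNORD14E is a copy of U14, which pairs with the rRNA precursor and is needed for its cleavage on the way to the small ribosomal subunit. It had 41, 21 and 28 counts in DMSO and 21, 17 and 20 in SAL. In CPM the groups did not overlap, at 3.90 ± 1.11 and 2.34 ± 0.43 (SD, n = 3), and the pairs gave -0.86, -0.56 and -0.56. The fitted value of -0.72 ± 0.29 had an adjusted p of 0.0903 in edgeR.

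SNORD14E belongs to a list of 15 snoRNAs with a part in the cleavage of the rRNA precursor, of which 4 were tested and 0 passed in edgeR. An unadjusted p under 0.05 was found for 2 of the 4, against 5449 of all 16835 genes. The median log2 fold change of the 4 was -0.45. The other one of the 44 on this list is SNORA73B, an H/ACA RNA also known as E1 or U17, whose locus lies in the SNHG3 and RCC1 genes. It had 1286, 267 and 102 counts in DMSO and 823, 294 and 160 in SAL, the highest level per length among the 8 single-locus SNORA at 299.7 CPM per kilobase. The pairs gave -0.60, -0.18 and 0.52. The log2 fold change was -0.18 ± 0.18 (SE, adjusted p = 0.562 in edgeR), and without replicate 1 it was 0.12.

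Among the SNORA, 18 of 20 log2 fold changes were negative, against 8443 of all 16835 genes, and SNORA7B was the only symbol past the threshold. In all 3 pairs 5 of the 20 were lower, beside 25.3% of all genes. SNORA23 (71.2 CPM per kilobase, in IPO7) had 272, 57 and 18 counts in DMSO and 181, 59 and 34 in SAL, with pairs of -0.54, -0.26 and 0.74. SNORA14B (45.0 CPM per kilobase, in TOMM20) had 128, 26 and 19 counts in DMSO and 70, 22 and 25 in SAL, with pairs of -0.81, -0.52 and 0.26. In both, pair 3 had the opposite sign to the others. The same split was seen over the class, whose median change was -0.33, -0.29 and 0.23 in pairs 1, 2 and 3. SNORA53, named after its values were seen, was the SNORA nearest to passing among those lower in SAL. It had 216, 61 and 19 counts in DMSO and 136, 53 and 16 in SAL, with a log2 fold change of -0.55 ± 0.19 (SE, adjusted p = 0.0564 in edgeR).

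The scaRNAs differed between pairs more than the other classes. In pair 1, SAL was lower for 10 of 10, with a median log2 change of -0.40. In pairs 2 and 3 it was lower for 3 and 4 of 10, with medians of 0.61 and 0.45. The SD of the 3 medians was 0.54, against 0.31 for SNORA and 0.10 for SNORD. With all libraries, 0 of 10 passed the adjusted test in edgeR and 1, SCARNA10, had an unadjusted p under 0.05. Without the replicate 1 libraries, 7 of 10 were higher in SAL at an adjusted p under 0.05 (SCARNA2, SCARNA7, SCARNA9, SCARNA12, SCARNA13, SCARNA17 and SCARNA21) and 0 were lower. In that fit 14.6% of all genes were higher and 11.7% lower. It holds only pairs 2 and 3, and its p-values do not measure well how far these differ. SCARNA7 passed in it with pair changes of 0.86 and -0.02. Without replicate 2 or replicate 3 no scaRNA passed.

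SCARNA7, a box C/D scaRNA in KPNA4, had the highest level per length of the 5 single-locus SCARNA, 388 CPM per kilobase. It had 2801, 213 and 246 counts in DMSO and 2133, 485 and 264 in SAL. The pairs gave -0.35, 0.86 and -0.02. The fitted value was 0.12 ± 0.25 (SE, adjusted p = 0.795 in edgeR), or 0.44 (adjusted p = 0.00808) without replicate 1. SCARNA9 (185 CPM per kilobase, in KIAA1731) had 1470, 96 and 89 counts in DMSO and 1133, 186 and 155 in SAL. Here pair 1 was at -0.33 and the other pairs at 0.63 and 0.67. SCARNA13 (161 CPM per kilobase, in SNHG10), an H/ACA scaRNA, had 936, 123 and 78 counts in DMSO and 648, 235 and 114 in SAL, with pairs of -0.48, 0.61 and 0.42. Within replicates 2 and 3, the CPM of SCARNA9 did not overlap between groups (13.1 and 11.9 with DMSO, 20.4 and 19.1 with SAL), and those of SCARNA13 did (16.8 and 10.4 with DMSO, 25.8 and 14.1 with SAL). Their fitted values without replicate 1 were 0.66 (adjusted p = 0.00298) and 0.54 (adjusted p = 0.0186).

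The widest spread between pairs in this class was that of SCARNA21, with 615, 44 and 27 counts in DMSO, 435, 160 and 51 in SAL, and pairs of -0.45, 1.51 and 0.76. Its log2 fold change was 0.35 ± 0.48 (SE) with all libraries and 1.25 (adjusted p = 1.30e-05) without replicate 1. The symbol covers 4 loci. SCARNA5, SCARNA10 and SCARNA15 were lower in all 3 pairs. SCARNA5 (219, 55 and 34 counts in DMSO, 186, 47 and 25 in SAL) was at -0.37 ± 0.19 and SCARNA10 (2708, 790 and 351 in DMSO, 1670, 874 and 362 in SAL) at -0.32 ± 0.11, with adjusted p-values of 0.187 and 0.0659 in edgeR. SCARNA10 passed without the filter (adjusted p = 0.0233) and was at -0.13 without replicate 1. SCARNA21, SCARNA5, SCARNA10 and SCARNA15 are named after their values were seen.

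The other small RNAs are given beside the scaRNAs for the same pairs. Over the 12 tested of 23 listed, SAL was lower for 12 of 12 in pair 1, for 2 in pair 2 and for 3 in pair 3, with median changes of -0.67, 0.70 and 0.62. Of these, RNU11 and RNU12, RNAs of the minor spliceosome, were lower in SAL with all libraries (-1.12 ± 0.27 and -1.03 ± 0.33, adjusted p = 0.00787 and 0.0381 in edgeR), and none was higher. Over all genes, 9.37% were lower and 11.5% higher. RNU11 did not pass without replicate 1 (-0.68, adjusted p = 0.285). RNU12, with -1.47, -0.38 and 0.23 in the pairs, did not pass in DESeq2 (adjusted p = 0.330) and was removed by the filter without replicate 1. The 12 and the scaRNAs were thus both lower in pair 1 and mostly higher in pairs 2 and 3. The rRNA share of the gene counts went from 27.7% (DMSO) to 27.8% (SAL) in pair 1, from 18.6% to 22.0% in pair 2 and from 11.9% to 17.4% in pair 3. The part of the rRNA share and of the small RNA content of the libraries in the changes of the scaRNAs was not tested.

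For 22 of the single-locus symbols, host genes on the same strand were tested too, which gave 24 pairs of small RNA and host with 22 hosts. Of the hosts, 6 were lower in SAL (SNHG10, TOMM20, RCC1, SNHG3, SNHG17 and RPS3) and 1 was higher (ATP6V0E1), with a median over the 22 hosts of -0.12. Over all genes, 9.37% were lower and 11.5% higher. Without replicate 3, when 1233 of all genes passed, none of the 7 hosts did. SNHG10 was also lost without replicate 1 (-0.37 in place of -0.56, adjusted p = 0.215), and TOMM20 without replicate 2 (adjusted p = 0.0892). In DESeq2, SNHG10 (adjusted p = 0.122) and TOMM20 (0.0584) did not pass. The small RNAs of these 7 hosts did not pass the test. SNORA73B was at -0.18 ± 0.18 beside RCC1 at -0.51 ± 0.10 (SE, adjusted p = 0.00144 in edgeR) and SNHG3 at -0.53 ± 0.09 (adjusted p = 0.000811). SNORA74B was at -0.45 ± 0.31 beside ATP6V0E1 at 0.57 ± 0.10 (adjusted p = 0.000565). SNORD15B and RPS3 had like values, -0.29 ± 0.11 and -0.34 ± 0.10 (adjusted p = 0.0198), and SNORD14E was at -0.72 ± 0.29 beside HSPA8 at -0.03 ± 0.09. Across the 24 pairs, which come from the same 6 libraries, Pearson's r of the log2 fold changes was -0.24. In 22 of the 24 the step from replicates 2 and 3 to replicate 1 was larger in the small RNA than in its host, whose steps ran from -1.30 to 1.57.

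**Figure D5:**
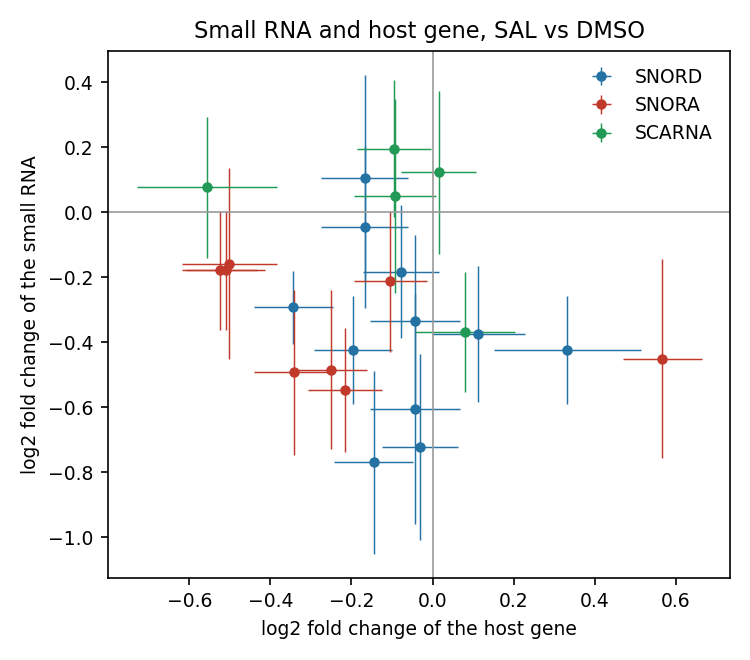
Fitted log2 fold change of the host gene (x axis) and of the small RNA inside it (y axis), SAL relative to DMSO, for 24 pairs coloured by class; bars are standard errors. The points do not follow a diagonal (r = -0.24), and the host with the largest positive value, ATP6V0E1, carries SNORA74B at -0.45.

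SnoRNAs work as particles with proteins. Each count below stands beside 9.37% of all genes lower and 11.5% higher in SAL. Of 5 proteins listed for C/D particles, 2 were lower in SAL, the methyltransferase FBL (-0.49 ± 0.12, adjusted p = 0.00841 in edgeR) and the scaffold NOP58 (-0.40 ± 0.09, adjusted p = 0.00716). Of the 4 core proteins of H/ACA particles, 1 was lower, the pseudouridine synthase DKC1 (-0.29 ± 0.10, adjusted p = 0.0482). Of 12 assembly factors tested, 1 was lower, TCOF1 (-0.59 ± 0.11, adjusted p = 0.000838), which acts in the nucleolus in the transcription and modification of rRNA. The list held 13 symbols, and NOP17 was not among the symbols counted. Of 7 Cajal body genes, 2 were lower, WRAP53, which binds scaRNAs and brings them to Cajal bodies (-0.74 ± 0.17, adjusted p = 0.00656), and GEMIN2 of the SMN complex (-0.47 ± 0.15, adjusted p = 0.0314). None of these genes was higher, and the medians of the 4 lists were -0.33, 0.05, -0.13 and -0.44. Without replicate 3 all 6 lost their calls, with adjusted p-values from 0.0643 to 0.323. DKC1 was also lost without replicate 1 (adjusted p = 0.183) and in DESeq2 (0.150), GEMIN2 in DESeq2 (0.130) and WRAP53 without replicate 2 (0.0681). Of 17 tested genes from a list of 22 known snoRNA hosts, most of them non-coding, 6 were lower, among them GAS5 (-0.34 ± 0.10, adjusted p = 0.0313) and SNHG3, and 0 were higher, with a median of -0.19. The call of GAS5 was lost when any 1 replicate number was left out (-0.20, adjusted p = 0.165, without replicate 1) and in DESeq2 (0.0702). The other 4 were SNHG1, SNHG12, SNHG15 and SNHG16. Without replicate 3, only SNHG1 of the 6 passed (adjusted p = 0.0251), and SNHG12 was at -0.25 (adjusted p = 0.300) without replicate 1 in place of -0.42. In DESeq2, SNHG12 (adjusted p = 0.126) and SNHG15 (0.131) did not pass.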

How the data were processed

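Total RNA of 6 C4-2 libraries, 3 DMSO and 3 SAL, was sequenced. The deposited values are raw counts per gene symbol. After trimming, the authors aligned only read 1 to hg19 (TopHat2 2.1.0) and made unstranded counts over GENCODE exons (HTSeq 0.11.2). The libraries came from a kit for total RNA, not for small RNAs, so the shortest RNAs may be under-represented.

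From the counts, 523 rRNA symbols were removed. Of the symbols, 16835 passed filterByExpr, were normalized with TMM and were tested with edgeR 4.0.16 in R 4.3.3 (quasi-likelihood, robust, replicate number as a block, Benjamini-Hochberg). Same-numbered libraries pair as in the study's paired test, since their deviations over all genes correlated at 0.89, 0.86 and 0.74. Each SE is the size of the log2 fold change over the square root of F. Changes per pair use log2 CPM with a prior count of 2. The fit was also run on simulated data without a spread particular to each gene, so that run is no check for the most variable small RNAs. DESeq2 1.42.0 was an alternative. Loci come from GENCODE v44 lifted to GRCh37, in which 830 of the 839 loci of the 3 classes are models of the version the authors used.

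The small RNAs and the gene lists were chosen with earlier results of these data known. Named were the called symbols of each class with the same direction in all pairs and the largest changes, the 3 single-locus symbols of the highest CPM per kilobase in each class, those in the cleavage of the rRNA precursor, those next to the minimum, the hosts of these and the called genes of the protein lists. Others are marked as named after their values were seen. The LNCaP cells of the study were not analysed here. The sequence of SNORD15B is not reported here.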

Additional observations from a re-analysis of the deposited data

How the results depend on the processing

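The call of SNORA7B held under each alternative other than the fit without the replicate block, with log2 fold changes from 1.498 to 1.77, and that of SNORD64 held under 4 of 10. Without the replicate block 21 genes passed and 0 of the 44 small RNAs did. The values of SCARNA12, SCARNA13, SCARNA2, SCARNA21, SCARNA7, SCARNA9 and SNORA79 then turned to -0.22, -0.22, -0.16, -0.11, -0.19, -0.17 and -0.083. DESeq2 with the block called 2240 genes, among them no SNORD (0). Without the filter 3 SNORD and 1 SCARNA were lower, and 3960 of all 34388 genes passed in either direction. Without the filter or without replicate 1, adjusted p-values in edgeR were far smaller for some genes at like effects, but not for all. KLK3 was at 1.22 (4.19e-40) without the filter and 1.14 (4.74e-27) without replicate 1, against 1.21 (3.33e-07). SNORA7B also had smaller values in both fits. SNORD91B had larger ones, at -0.76 (0.0947) without the filter and -0.82 (0.217) without replicate 1, against -0.77 (0.067). Calls in these fits are thus not on a par with those of the others. With a minimum of 10 counts for all genes SNORA79 turned to -0.0038, SNORD91B passed and SNORD64 did not (adjusted p = 0.0501). When an absolute log2 value of 1 or more was demanded too, 886 genes and 0 SNORD passed. With a minimum of 30 counts in each library, SNORA7B fell out and 0 SNORA passed.

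TMM factors from the 44 small RNAs alone moved the median of all genes by 0.19. Under them 0 SNORD were lower and 1 SCARNA was higher, and 2557 of all 16835 genes passed in either direction. The SNORD median was -0.15 and the SNORA median 0.048. None of the 6 protein genes of snoRNA particles and Cajal bodies named above passed under them or without the replicate block. The same held for the 6 hosts of single-locus symbols that were lower in SAL. The host ATP6V0E1 passed under these factors (adjusted p = 0.00176 in edgeR) and not without the block. Values turned positive for SCARNA15 (0.050), SNORA12 (0.058), SNORA20 (0.19), SNORA23 (0.087), SNORA26 (0.12), SNORA31 (0.18), SNORA42 (0.19), SNORA71A (0.039), SNORA73B (0.082), SNORA74 (0.18), SNORD108 (0.18), SNORD116-20 (0.010), SNORD59A (0.083), HSPA8 (0.16) and ZFAS1 (0.16).

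Leaving out a replicate number gave 0 to 2 SNORD called lower, 0 to 7 SCARNA called higher (7 without replicate 1), a SNORD median of -0.37 to -0.22 and 1233 (without replicate 3) to 4398 genes called. Ranges that crossed 0 were -0.23 to 0.63 for SCARNA12, -0.22 to 0.54 for SCARNA13, -0.0047 to 0.60 for SCARNA17, -0.35 to 0.70 for SCARNA2, -0.21 to 1.25 for SCARNA21, -0.23 to 0.44 for SCARNA7, -0.024 to 0.66 for SCARNA9, -0.23 to 0.21 for SNORA20, -0.43 to 0.13 for SNORA23, -0.39 to 0.047 for SNORA26, -0.41 to 0.14 for SNORA31, -0.16 to 0.20 for SNORA42, -0.40 to 0.12 for SNORA73B, -0.31 to 0.37 for SNORA74, -0.70 to 0.37 for SNORA76, -0.37 to 0.36 for SNORA79, -0.19 to 0.16 for SNORD108, -0.12 to 0.33 for SNORD116-18 and -0.13 to 0.16 for RPL32P3. The cause was not tested. The sign held under every alternative for 21 of the 44. Counts under 30 in many libraries and 3 pairs limit what could be seen for single small RNAs.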
